A study of Rattus norvegicus with 38 samples.

Results

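The peaks described here are the H3K27ac peaks at gene promoters that the authors called as differing between rotenone-exposed and vehicle-treated rats in the substantia nigra (SN) or the motor cortex. They were selected on those calls. Each is a row of 1 of the authors' 4 tables of differentially acetylated peaks whose annotation begins with Promoter, meaning within 3 kb of a transcription start site, and each was matched by chromosome, start and end to the deposited peak list of its region. In total, 1414 of 151509 listed peaks were promoter members. In the SN, 276 were hyperacetylated, with more H3K27ac after rotenone, and 101 were hypoacetylated. The motor cortex had 620 hyperacetylated and 417 hypoacetylated members. Because the call and its direction chose the members, both are given as a description, with no test.

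Male Lewis rats of 8 to 10 months, retired breeders with no transgene, received rotenone at 2.8 mg/kg intraperitoneally every day or vehicle, and tissue was taken 24 h after the last injection. Dosing lasted 21 days in one account of the study and ran to a behavioural endpoint in another. The SN and motor cortex came from the same 9 rats, 5 given rotenone and 4 given vehicle. The vehicle is named differently in the sample labels (PBS), in the protocol text (Miglyol) and in the methods (DMSO in Miglyol), and the labels call the SN tissue ventral midbrain and the motor cortex tissue cortex. Peaks had been called on pooled reads of rotenone and vehicle rats alike, which leaves a single list for each region, with positions but no height, count or score. No value per rat exists in these lists, and neither the spread between rats nor the depth behind a peak could be computed. The motor cortex libraries are described as holding more reads overall than those of the SN. Intervals below are 95% Wilson intervals that treat peaks as independent and cover counting error only. The tissue is a mixture of cell types, in which a change in the number of cells of a type and a change in acetylation per cell cannot be told apart. Genes are named in the tables only for called peaks, so the dissected tissue could not be checked against its defining markers among the peaks without a call.

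H3K27ac, acetylation of lysine 27 of histone H3, is deposited by p300 and CBP and marks active promoters and enhancers. At promoters it flanks the nucleosome-depleted start site, and broad acetylated domains are known at genes that define a cell type. In the brain, promoter acetylation is known to follow neuronal activity at immediate early genes and inflammatory signalling in microglia and endothelial cells.

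A few promoters are printed as examples, and they are not typical, since few member genes hold the motifs marked. The bases below are the 250 before the start site of 8 member genes, read 5′ to 3′ on the gene's strand from RefSeq (GRCr8), a later build than the mRatBN7.2 build of the peaks, so that no position in GRCr8 is given. They were picked after the motif search because they carry the motif that the capitals mark. The first 5 hold the cAMP response element, TGACGTCA, which is bound by CREB. Btg2, an antiproliferative early gene, Scg2, which encodes secretogranin II, and Vgf, which encodes a neuropeptide precursor, had hypoacetylated promoter peaks in the motor cortex. The Btg2 peak lay between 2 and 3 kb from the start, away from the bases printed. Those of Scg2 and Vgf lay within 1 kb.
Btg2: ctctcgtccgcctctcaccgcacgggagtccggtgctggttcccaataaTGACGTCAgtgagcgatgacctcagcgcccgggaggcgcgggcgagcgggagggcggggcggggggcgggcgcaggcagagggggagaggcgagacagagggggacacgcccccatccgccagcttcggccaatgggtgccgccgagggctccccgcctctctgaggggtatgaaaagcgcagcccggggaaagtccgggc
Scg2: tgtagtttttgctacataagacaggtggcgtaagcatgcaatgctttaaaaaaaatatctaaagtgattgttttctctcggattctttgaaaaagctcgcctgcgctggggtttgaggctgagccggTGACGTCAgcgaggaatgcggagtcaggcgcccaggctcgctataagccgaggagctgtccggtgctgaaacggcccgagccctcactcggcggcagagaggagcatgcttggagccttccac
Vgf: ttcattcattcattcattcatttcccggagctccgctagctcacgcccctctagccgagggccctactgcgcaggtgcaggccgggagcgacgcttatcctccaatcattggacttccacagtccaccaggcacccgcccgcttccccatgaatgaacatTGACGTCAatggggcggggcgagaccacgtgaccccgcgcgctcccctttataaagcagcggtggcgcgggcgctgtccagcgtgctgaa
Ier2, an immediate early gene, had a hyperacetylated promoter peak in the SN, and Maff, a small Maf transcription factor, had one in both regions.
Ier2: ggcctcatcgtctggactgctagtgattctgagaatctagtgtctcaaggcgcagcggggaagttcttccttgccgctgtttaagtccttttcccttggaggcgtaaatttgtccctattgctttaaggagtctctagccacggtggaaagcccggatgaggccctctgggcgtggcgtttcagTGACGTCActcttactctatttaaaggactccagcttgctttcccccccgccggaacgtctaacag
Maff: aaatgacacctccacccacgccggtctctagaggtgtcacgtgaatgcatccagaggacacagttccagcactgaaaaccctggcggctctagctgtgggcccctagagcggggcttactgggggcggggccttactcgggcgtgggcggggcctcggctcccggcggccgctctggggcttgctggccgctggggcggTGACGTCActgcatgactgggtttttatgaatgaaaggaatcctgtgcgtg
The remaining 3 hold an NF-kB site in capitals. Bcl3, an atypical IkB protein that binds NF-kB p50 and p52, and Socs3, the feedback inhibitor of STAT3 signalling, were hyperacetylated in both regions. Nfkbia, which encodes the NF-kB inhibitor IkBα, was hyperacetylated in the motor cortex.
Bcl3: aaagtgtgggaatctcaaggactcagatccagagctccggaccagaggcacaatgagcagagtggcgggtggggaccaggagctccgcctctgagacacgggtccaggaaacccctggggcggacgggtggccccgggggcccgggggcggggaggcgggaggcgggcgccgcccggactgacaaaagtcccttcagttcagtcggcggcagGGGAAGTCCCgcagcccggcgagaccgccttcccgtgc
Nfkbia: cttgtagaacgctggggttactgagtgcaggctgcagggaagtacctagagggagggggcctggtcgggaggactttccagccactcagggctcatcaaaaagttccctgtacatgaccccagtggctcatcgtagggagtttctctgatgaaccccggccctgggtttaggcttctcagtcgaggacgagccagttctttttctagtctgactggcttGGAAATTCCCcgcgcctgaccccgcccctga
Socs3: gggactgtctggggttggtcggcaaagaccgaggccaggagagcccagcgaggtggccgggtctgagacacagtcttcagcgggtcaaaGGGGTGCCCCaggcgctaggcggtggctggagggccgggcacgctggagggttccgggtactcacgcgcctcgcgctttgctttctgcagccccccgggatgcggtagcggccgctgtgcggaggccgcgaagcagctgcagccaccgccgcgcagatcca

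Counted back from the start, the cAMP response element began at -201 in Btg2, -123 in Scg2, -90 in Vgf, -66 in Ier2 and -51 in Maff. The NF-kB site began at -38 in Bcl3, -31 in Nfkbia and -161 in Socs3. A match is a run of letters and not a measured binding site.

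The share of promoters among called peaks differed widely by direction. In the SN, 31.6% of the 874 hyperacetylated peaks were promoter members (95% interval 28.6 to 34.7%) against 8.31% of the 1216 hypoacetylated peaks (6.88 to 9.99%). Corresponding motor cortex shares were 15.4% of 4015 (14.4 to 16.6%) and 8.00% of 5212 (7.29 to 8.77%). Read the other way, 73.2% of SN promoter members were hyperacetylated (68.5 to 77.4%), whereas 39.8% of called intronic peaks (35.5 to 44.3%) and 30.4% of called distal intergenic peaks (27.6 to 33.3%) were. The motor cortex had 59.8% hyperacetylated among promoter members (56.8 to 62.7%), 51.1% among intronic peaks and 32.1% among distal intergenic peaks. The SN promoter interval lay above the motor cortex promoter interval, and no interval of another annotation in the SN reached it. Motor cortex peaks in untranslated regions stood higher than promoters, at 70.2% (64.4 to 75.4%). These intervals do not carry the spread between rats, and the difference between regions was not tested. Over all listed peaks, 1.24% of the SN list was called hyperacetylated and 1.72% hypoacetylated, and 4.97% and 6.45% of the motor cortex list. The authors tested fewer SN peaks than the list holds, so the SN percentages are lower than among tested peaks. Widths, overlaps and neighbours given below for all listed SN peaks also cover those untested peaks, which could not become members.

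**Figure D1:**
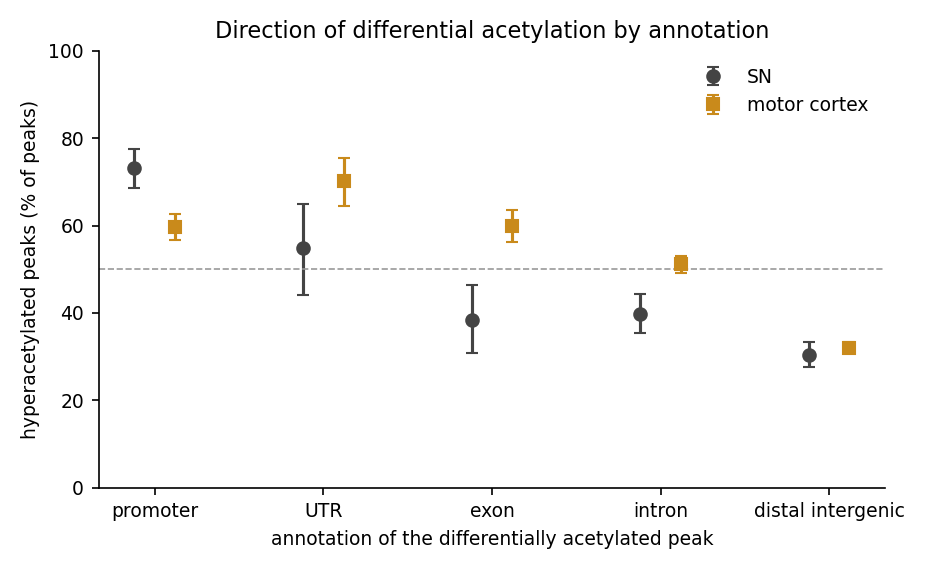
Percent of differentially acetylated peaks that were hyperacetylated (y axis) by annotation (x axis) in the SN (circles) and motor cortex (squares). Bars are 95% Wilson intervals, the dashed line is an equal split, and SN promoters stand highest at 73.2% while distal intergenic peaks lie near 30.4% and 32.1%.

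Most members sat close to a start site. Within 1 kb of the start lay 239 of 276 hyperacetylated SN members, 72 of 101 hypoacetylated SN members, 442 of 620 hyperacetylated and 312 of 417 hypoacetylated motor cortex members. Of the 1414 members, 1388 carried a symbol that the RefSeq gene table places on the same chromosome, 5 had no gene name, 5 had a symbol on another chromosome and 16 a symbol that is not in that table. The members named 1224 genes, of which 1144 appeared in 1 table, 79 in 2 tables and 1, Nfil3, in 3 tables.

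Promoter members were wide peaks, and in both lists wide peaks were called more often. In the SN, 0.087% of listed peaks below 1000 bp were called hyperacetylated and 0.436% hypoacetylated, against 6.68% and 4.77% from 8000 bp on. The motor cortex shares were 3.28% and 4.40%, against 7.45% and 12.5%. The median width was 3080 bp for hyperacetylated and 2575 bp for hypoacetylated SN members, where all listed SN peaks had a median of 994 bp and the called SN peaks outside promoters 2076 bp. Motor cortex members had medians of 1997 bp where hyperacetylated and 3035 bp where hypoacetylated, against 1245 bp for the list and 1617.5 bp for the called peaks outside promoters. Called exonic peaks and peaks in untranslated regions could be wider than members. Their medians were 2148 and 2602.5 bp among hyperacetylated motor cortex peaks and 2831.5 and 2677 bp among hypoacetylated SN peaks. Hyperacetylated SN peaks in untranslated regions had a median of 3537 bp.

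**Figure D2:**
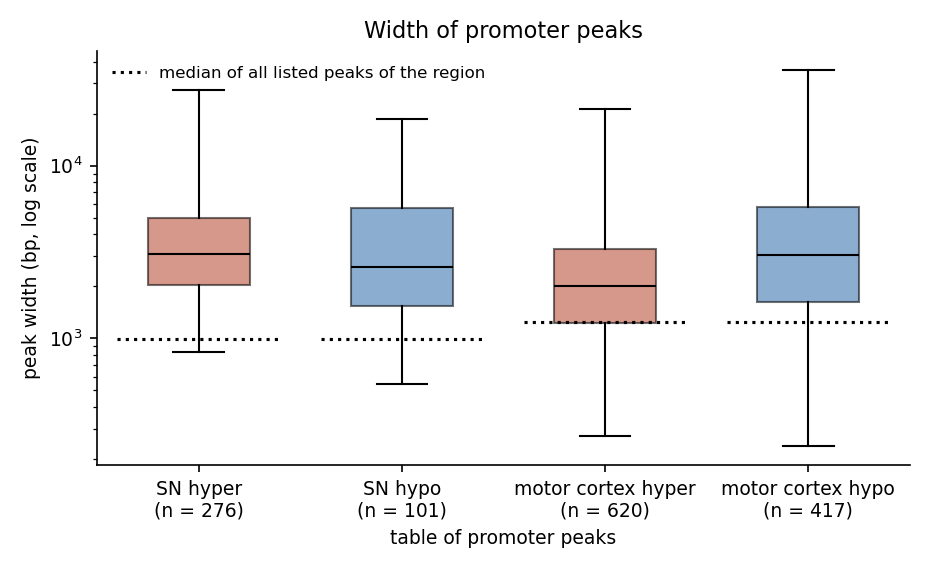
Width in bp on a log axis of the promoter members of each table. Boxes span the quartiles with the median as a line, whiskers reach the narrowest and widest member, and dotted lines mark the median of all listed peaks of the region (994 bp in the SN, 1245 bp in the motor cortex), which lie below all 4 member medians.

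The widest members marked genes of quite different kinds in each table. Among hyperacetylated SN members the 5 widest were at Slc2a1, the blood-brain barrier glucose transporter (27580 bp), Sox2, a neural progenitor and glial transcription factor (24957 bp), Ralgds, a Ral guanine nucleotide exchange factor (22853 bp), Pim3, a STAT-induced kinase (20360 bp), and Git1, an Arf GTPase-activating scaffold (19089 bp). The Slc2a1 peak overlapped 7 separate motor cortex peaks. Among hypoacetylated SN members they were a pair of adjacent peaks at Mir9-1 (18663 and 13693 bp), Rasgrp3, a Ras activator (10809 bp), Plekhb1 (10129 bp) and Trim59 (10056 bp). The widest hyperacetylated motor cortex members were at Ptp4a3, a phosphatase (21311 bp), Git1 (18994 bp), Macir (17388 bp), the transcription factor gene Klf13 (16306 bp) and Ddit4, a stress-induced mTORC1 inhibitor (12622 bp). The widest hypoacetylated ones include those at Mir9-1 (36004 bp), Bcl11a (32797 bp), Mir9-2 (32786 bp) and Slain1 (27138 bp). The peak at Bcl11a, which encodes a transcription factor of cortical neurons, overlapped no peak of the SN list.

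Some of the broadest members, and many narrow ones, lay at microRNA genes. The tables held 22 promoter members at 17 microRNA genes. The mature sequences below, from RefSeq, belong to the microRNA genes called in both regions (Mir9-1 with its copy Mir9-2, and Mir21), to the neighbours Mir100 and Mir125b1, which had opposite calls, and to Mir139, whose motor cortex peak met none in the SN. The seed (bases 2 to 8) is in capitals.
rno-miR-9a-5p: uCUUUGGUuaucuagcuguauga
rno-miR-9a-3p: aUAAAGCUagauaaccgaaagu
rno-miR-21-5p: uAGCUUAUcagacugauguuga
rno-miR-21-3p: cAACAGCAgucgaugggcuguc
rno-miR-100-5p: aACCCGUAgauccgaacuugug
rno-miR-125b-1-3p: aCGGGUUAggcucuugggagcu
rno-miR-139-5p: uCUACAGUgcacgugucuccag

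Mir9-1 and Mir9-2 are separate genes on chromosome 2 that give the same miR-9a-5p and miR-9a-3p, neural microRNAs that act in neurogenesis. The motor cortex held a hypoacetylated peak at each. In the SN, 2 hypoacetylated peaks lay at Mir9-1, side by side within the single motor cortex peak (chromosome 2, 173660119 to 173696122, mRatBN7.2), while the SN peaks at Mir9-2 had no call. Mir21, an inflammation- and STAT3-responsive microRNA gene, had 2 hyperacetylated promoter peaks in each region. They measured 4198 and 3290 bp in the SN and 3987 and 3285 bp in the motor cortex, and each SN peak overlapped the motor cortex peak of like width. The remaining hypoacetylated microRNA promoters of the motor cortex were at Mir124-1 (17325 bp), Mir125b1 (12633 bp), Mir139 (6561 bp), Mir344a-2 (2006 bp) and Mir344b-3 (692 bp). Mir139 and Mir344b-3 met no peak in the SN list. Hyperacetylated ones of the motor cortex were at Mir297 (10819 bp), Mir3075 (10573 bp), Mir3074 (7362 bp), Mir3572 (2062 bp), Mir709 (2035 bp), Mir100 (1881 bp), Mir150 (1286 bp) and Mir3584 (1254 bp), of which those at Mir3572 and Mir709 met no SN peak. Mir6329 (3498 bp) was hyperacetylated in the SN alone, where the motor cortex list held no peak. Mir100 and Mir125b1 lie on chromosome 8 with 43.8 kb between their peaks, and their motor cortex promoter peaks went in opposite directions, Mir100 up and Mir125b1 down. Among the mature sequences listed for these genes, which include none for Mir150 or Mir124-1 and 1 arm for Mir125b1, the only seeds found at more than 1 gene were those of the products common to Mir9-1 and Mir9-2.

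Promoter members of one region mostly overlapped a peak of the other, sharing at least 1 bp. This held for 265 of 276 hyperacetylated SN members (96.0%, interval 93.0 to 97.8%) and 94 of 101 hypoacetylated ones (93.1%, 86.4 to 96.6%), where 65.3% of all listed SN peaks overlapped a motor cortex peak. Among motor cortex members it held for 536 of 620 (86.5%, 83.5 to 88.9%) and 349 of 417 (83.7%, 79.8 to 86.9%), where the whole list stood at 55.1%. Called peaks outside promoters stood lower than members, at 85.8% of hyperacetylated and 74.3% of hypoacetylated ones in the SN and 67.5% and 52.9% in the motor cortex. Overlap rose with width in the lists, and the SN list includes peaks that the authors did not test. Of listed SN peaks below 1000 bp wide, 44.4% overlapped a motor cortex peak, against 83.3% of the 6 hyperacetylated and 75% of the 8 hypoacetylated members of that width. From 1000 to below 2000 bp it was 79.6% of listed SN peaks, against 93.3% of 60 and 93.8% of 32 members. Of listed SN peaks from 2000 to below 4000 bp wide, 94.8% overlapped a motor cortex peak, against 94.3% of hyperacetylated and 88.5% of hypoacetylated members, and from 4000 bp on every SN member overlapped one. Listed motor cortex peaks stood at 38.3% below 1000 bp, 58.7% from 1000 to below 2000 bp and 71.4% from 2000 to below 4000 bp, against 77.2%, 82.4% and 88.9% of hyperacetylated and 64%, 76.7% and 89.1% of hypoacetylated members.

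Most members with a peak in both regions had a call in only their own. Among the overlapping members, 66 of 265 hyperacetylated SN members met a hyperacetylated motor cortex peak (24.9%, interval 20.1 to 30.4%), and 28 of 94 hypoacetylated ones met a hypoacetylated peak (29.8%, 21.5 to 39.7%). For called SN peaks outside promoters these shares were 33.7% and 50.7%. From the motor cortex side, 63 of 536 hyperacetylated (11.8%, 9.30 to 14.8%) and 22 of 349 hypoacetylated members (6.30%, 4.20 to 9.36%) met an SN peak of their own direction, against 8.33% and 17.9% outside promoters. The interval outside promoters for hypoacetylated motor cortex peaks was 16.5 to 19.5%, and the differences between promoters and other peaks were not tested. Calls covered 4.97% (hyperacetylated) and 6.45% (hypoacetylated) of all listed motor cortex peaks. In the SN they covered 1.24% and 1.72% of listed peaks. Those shares count every listed peak once, whereas a member could meet several peaks, so the scales differ. Both sets of calls rest on 1 set of 9 rats and are not independent.

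**Figure D3:**
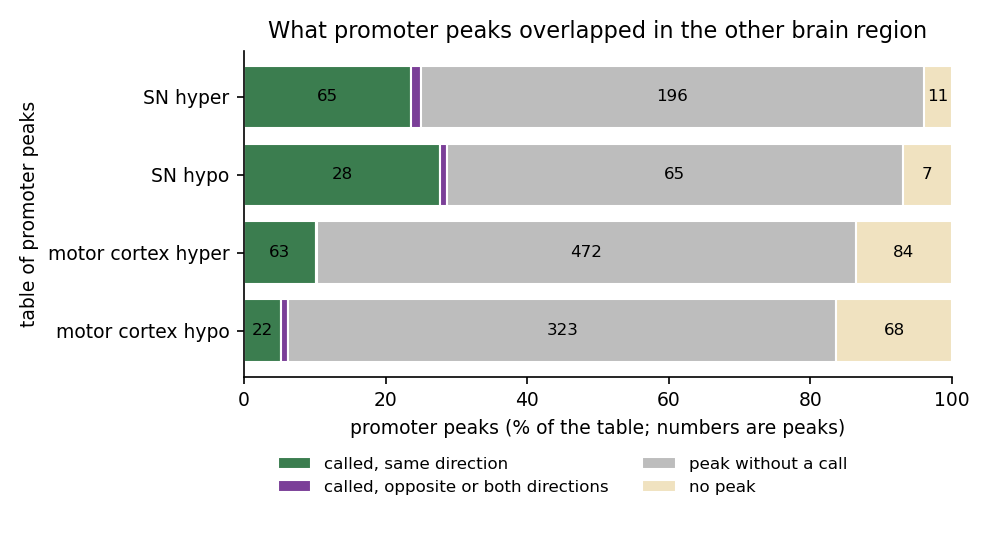
Share of the promoter members of each table (x axis, percent) by what they overlapped in the other brain region, with the number of peaks written in the larger segments. A peak without a call is the largest class in every table, from 65 of 101 hypoacetylated SN members to 323 of 417 hypoacetylated motor cortex members.

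By gene, 54 genes had hyperacetylated promoter members in both regions, which is 20.4% of the 265 SN genes and 9.76% of the 553 motor cortex genes. They include the inflammatory regulators Bcl3, Stat3, Socs3, Cebpb, Cebpd and Cd14, the hypoxia factors Epas1 and Hif3a, the cyclin-dependent kinase inhibitor gene Cdkn1a, and Tspo, the mitochondrial translocator protein used as a marker of gliosis. A hypoacetylated promoter in both regions was found for 22 genes, 23.7% of 93 in the SN and 5.58% of 394 in the motor cortex. These include the astrocyte genes S100b and Cst3, the myelin-associated genes Omg and Ermn, the Wnt receptor gene Fzd10, the epilepsy gene Lgi1 and the immediate early gene Fosb. Of all 23148 protein-coding genes, 2.3% had a hyperacetylated promoter in the motor cortex and 1.12% in the SN. For hypoacetylated promoters the shares were 1.62% and 0.376%.

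Opposite directions were rare, and every case can be named. Fos, the immediate early transcription factor, was hyperacetylated in the SN over 3767 bp and hypoacetylated in the motor cortex over 4442 bp, and the SN peak lay wholly within the motor cortex one (chromosome 6, 105118637 to 105123078). Adpgk, an ADP-dependent glucokinase, had a hyperacetylated SN peak of 14710 bp that contained a hypoacetylated motor cortex promoter peak of 9672 bp, together with an exonic and an intronic peak of the same gene that were also hypoacetylated. Pgbd5, a domesticated transposase expressed in brain, went the other way, with a hypoacetylated SN peak of 4473 bp and a hyperacetylated motor cortex peak of 5480 bp that shared 3832 bp. Midn, which encodes the proteasome adaptor midnolin, and its neighbour Atp5f1d, an ATP synthase subunit, met only at their edges, by 634 bp between a hyperacetylated SN peak and a hypoacetylated motor cortex peak. Nfil3, a repressor in the circadian and immune systems, was the most divided. Its SN promoter peaks (856 and 5129 bp) were both hyperacetylated. In the motor cortex a peak of 5228 bp was hypoacetylated, and 152 bp away a peak of 449 bp was hyperacetylated. Within the SN, Nr1d2, the clock repressor REV-ERBβ, had a hypoacetylated peak of 3578 bp within 1 kb of the start and a hyperacetylated one of 3327 bp beyond it, 263 bp apart on chromosome 15.

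**Figure D4:**
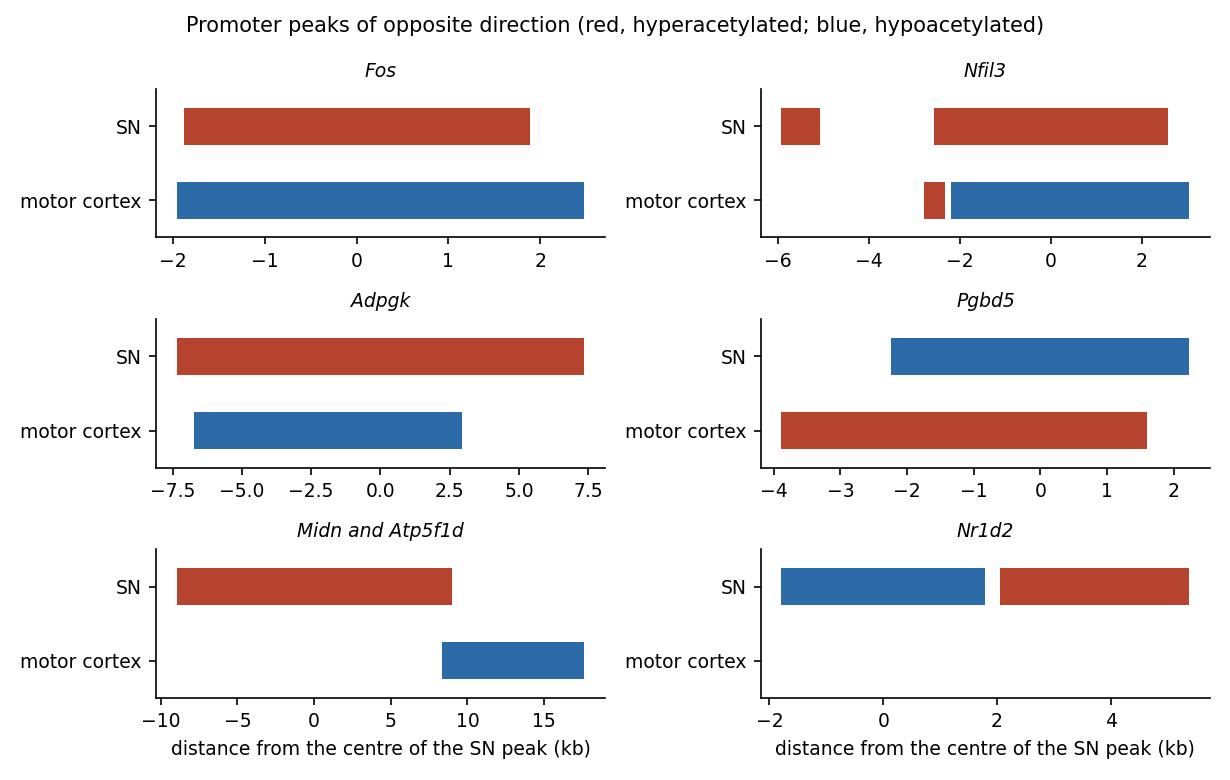
Promoter peaks with opposite calls, drawn to scale as bars against distance in kb from the centre of the SN peak (the hypoacetylated one for Nr1d2, the wider one for Nfil3), with red for hyperacetylated and blue for hypoacetylated. Only called promoter peaks are drawn. At Fos, Nfil3, Adpgk and Pgbd5 the bars of the regions overlap over most of their length, while Midn and Atp5f1d meet by 634 bp.

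Gene lists show which functions the promoter members touched. The 18 lists held 418 different genes, 17 of them on several lists, and 139 had a promoter member in some table. The lists were written with the members known, so their counts describe the members and carry no test. The background is the share of 23148 protein-coding genes with a promoter member, 1.12% for hyperacetylated SN, 0.376% for hypoacetylated SN, 2.30% for hyperacetylated and 1.62% for hypoacetylated motor cortex promoters.

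**Figure D5:**
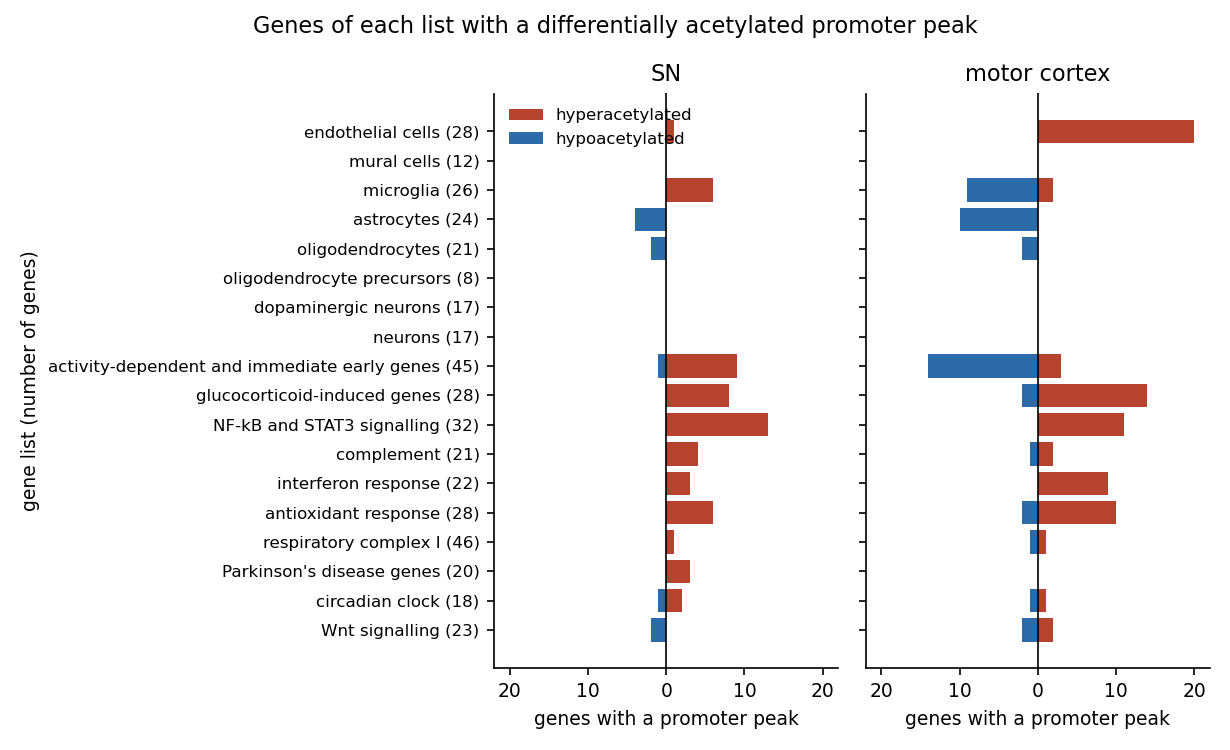
Number of genes of each list with a hyperacetylated (red, to the right) or hypoacetylated (blue, to the left) promoter peak in the SN and motor cortex, with the size of the list in parentheses. Endothelial genes extend to 20 in the motor cortex and 1 in the SN, and the activity-dependent genes point right in the SN (9) and left in the motor cortex (14).

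Endothelial genes were the most complete list. In the motor cortex 20 of 28 had a hyperacetylated promoter, among them the junction genes Cldn5, Cdh5, Pecam1 and Esam, the vascular endothelial growth factor and angiopoietin receptor genes Flt1, Tek and Tie1, the transcription factor genes Sox17 and Sox18, Vwf, which encodes von Willebrand factor, and the endothelial nitric oxide synthase gene Nos3. All 20 had a member within 1 kb of the start. None had a hypoacetylated promoter in either region. In the SN, 1 gene of the list, Slc2a1, had a hyperacetylated promoter. The 24 motor cortex members were narrow, with a median of 1488 bp and a range of 400 bp (Robo4) to 5607 bp (Slco1a4). Of these members 22 overlapped an SN peak, none of which was called in either direction. No gene of the 12 on the mural cell list, pericyte and smooth muscle markers such as Pdgfrb and Rgs5, had a promoter member in any table.

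The microglial genes called up at promoters in the SN and those called down in the motor cortex were different genes. In the SN 6 of 26 had a hyperacetylated promoter and none a hypoacetylated one. They were C1qa, C1qb and C1qc, which encode the 3 chains of C1q, the starter of the classical complement pathway. The others were Itgam, which encodes CD11b, Fcgr3a, an Fc receptor gene, and Cd14, the lipopolysaccharide co-receptor gene. In the motor cortex 9 were hypoacetylated, among them the resting-state receptor genes P2ry12, Cx3cr1 and Gpr34, the lineage transcription factor genes Spi1 and Irf8, and Ctss, Mertk, Selplg and C3ar1. C1qb and Cd14 were hyperacetylated there as well. With peaks of any annotation counted, 7 genes of the list were hyperacetylated and 2 hypoacetylated in the SN. In the motor cortex these counts were 3 and 13. The C1q genes lie in a row on chromosome 5 (149122085 to 149136488), where 5 hyperacetylated SN peaks fell within 14.4 kb, with widths of 2260 and 940 bp at C1qb, 893 and 2405 bp at C1qc and 2953 bp at C1qa. Only 1 of the 5, at C1qb, met a called motor cortex peak, and the 893-bp peak at C1qc met none. This was the window of 1 Mb with the most hyperacetylated SN members. At Cx3cr1, the fractalkine receptor gene, 3 adjacent motor cortex peaks of 7116, 1458 and 458 bp were hypoacetylated. None of the 14 hypoacetylated microglial members of the motor cortex met a called SN peak, although 13 met a peak.

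Of the 24 astrocyte genes, 12 had no promoter member, and the members of the others were all hypoacetylated. In the motor cortex 10 genes had a hypoacetylated promoter and none a hyperacetylated one. They include Aqp4, the water channel of end feet, the glutamate transporter genes Slc1a2 and Slc1a3, Gja1, which encodes connexin 43, Glul, which encodes glutamine synthetase, and Sox9. Their peaks were wide, with a median of 7509 bp and a maximum of 23433 bp at Slc1a2. In the SN 4 were hypoacetylated (S100b, Cst3, Slc7a10 and Gpc5), and S100b and Cst3 met hypoacetylated motor cortex peaks. Counting peaks of any annotation, 3 genes of the list had a hyperacetylated peak in the motor cortex and 1 in the SN. Gfap, the intermediate filament gene of reactive astrocytes, had no promoter member. On the oligodendrocyte list only Omg and Ermn had one, hypoacetylated in both regions. No promoter member lay at any of the 8 precursor genes, the 17 dopaminergic genes, which include Th and Slc6a3, or the 17 general neuronal genes.

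At promoters, the called immediate early and activity-dependent genes were mostly up in the SN and mostly down in the motor cortex. In the SN 9 of 45 were hyperacetylated, namely Fos, Fosl2, Junb, Ier2, Klf6, Maff, Myc, Gadd45g and Csrnp1. Fosb was the 1 hypoacetylated gene, over 931 bp. In the motor cortex 14 were hypoacetylated, namely Arc, Npas4, Bdnf, Homer1, Egr4, Nr4a3, Fos, Fosb, Btg2, Srf, Crem, Vgf, Scg2 and Rheb, genes that neurons switch on with synaptic activity, including the cytoskeletal plasticity gene Arc (11511 bp) and the activity-dependent transcription factor gene Npas4 (10523 bp). Klf2, Maff and Sik1 were hyperacetylated there. Of the genes called at the promoter in both regions, Maff was up in both, Fosb was down in both and Fos was up in the SN and down in the motor cortex. Of the 14 hypoacetylated members, 9 met an SN peak without a call and 3, at Btg2, Egr4 and Scg2, met no SN peak. Counting peaks of any annotation, 18 genes of the list had a hyperacetylated peak in the motor cortex and 26 a hypoacetylated one. In the SN these counts were 13 and 4. The paper reports hyperacetylation of Homer1 in the motor cortex, at the most significant peak of the gene.

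Genes of NF-kB and STAT3 signalling had hyperacetylated promoters in both regions, 13 of 32 (SN) and 11 of 32 (motor cortex), and no hypoacetylated promoter. With peaks of any annotation counted, 18 genes were hyperacetylated and 1 hypoacetylated in the SN. In the motor cortex these counts were 16 and 4. The genes up in both include Bcl3, Mir21, Stat3, Socs3, Cebpd, Cebpb, Cd14 and Pim3. In the SN they were joined by the receptor genes Tnfrsf1a, Ltbr and Il17ra and by Irak3, and in the motor cortex by Il6r and Nfkbia. Of the 15 SN members, 11 met a hyperacetylated motor cortex peak, and the one at Socs3 spanned 8780 bp against 1920 bp in the motor cortex. Glucocorticoid-induced genes went the same way, with 8 of 28 hyperacetylated (SN) and 14 of 28 (motor cortex). Sgk1, Cdkn1a, Cebpb, Cebpd, Map3k6 and Nfil3 were so in both, Fkbp5, Ddit4, Klf15, Txnip and Mt1 in the motor cortex, and Bcl6 in the SN. Fam107a and Nfil3 had hypoacetylated motor cortex promoters. The interferon list had 3 of 22 hyperacetylated in the SN (Trim25, Irf9 and Ube2l6) and 9 in the motor cortex, which include Isg15, Ifit2, Ifitm3 and Oas3, with none hypoacetylated.

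Among antioxidant genes, regulated by the transcription factor NRF2, 6 of 28 were hyperacetylated in the SN, which include Taldo1, Mafg, Mgst2, Txnrd1 and Maff, and 10 in the motor cortex, which include Nqo1, Srxn1, Gstp1, Mgst1 and Gpx2. Slc7a11, the cystine transporter gene, and Gsta1 were hypoacetylated in the motor cortex. Subunit and assembly genes of respiratory complex I, the target of rotenone, had almost no promoter members. Of 46 genes, Ndufaf3 was hyperacetylated in the SN (5062 bp), Ndufv2 was hyperacetylated in the motor cortex (1803 bp) and Ndufb2 was hypoacetylated there (2199 bp), shares of 2.17% each that lie near the background of all genes. Of 20 genes tied to familial Parkinson's disease, 3 had hyperacetylated SN promoters, Pink1, which encodes the mitophagy kinase, Synj1 and Tmem230, and none had a member in the motor cortex. The Pink1 peak (2535 bp) lay between 2 and 3 kb from the start and met a hyperacetylated motor cortex peak of 874 bp that was annotated as distal intergenic. Lrrk2 had no promoter member in either region. On the Wnt list Fzd2 and Fzd10 were hypoacetylated in the SN, Fzd10 and Ndp in the motor cortex, and Fzd4 and Lef1 were hyperacetylated in the motor cortex. On the complement list, outside the C1q genes, Itgam and the genes already named, Cd59b was hyperacetylated in the motor cortex. The circadian list had Nfil3 and Nr1d2 alone.

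Several genes gathered 3 or more promoter members. Hyperacetylated motor cortex members gathered at Pla2g3, a secreted phospholipase (4 peaks over 10.0 kb), and at Foxc1, Gatd1, Phyhd1, Plec, Serpinf2 and Wdr19 (3 each), and hypoacetylated ones at Cx3cr1, Cyth4 and Or4d6 (3 each). In the SN 3 hypoacetylated peaks covered 21.0 kb at Slain1, a microtubule growth gene, where the motor cortex list held 1 hypoacetylated peak of 27138 bp. Plec, which encodes the cytoskeletal linker plectin, was hyperacetylated in both regions, and its 3 motor cortex peaks each met a hyperacetylated SN peak. The 3 peaks at Serpinf2, the α2-antiplasmin gene, and the 3 at Or4d6 met no SN peak. The most crowded windows of 1 Mb in the motor cortex held 7 hyperacetylated members each, from Ifitm3 through Taldo1, Gatd1 and Pnpla2 to Polr2l on chromosome 1 and from Mknk2 to Ptbp1 on chromosome 7. Windows with 6 include one on chromosome 10 at P3h4, Acly, Dhx58, Stat3 and Cavin1, and windows with 4 in the SN include one on chromosome 19 at Junb, Prdx2, Nacc1 and Ier2. A further peak of the same direction lay within 50 kb of 377 of 620 hyperacetylated motor cortex members (60.8%), 189 of 417 hypoacetylated ones (45.3%), 87 of 276 hyperacetylated SN members (31.5%) and 34 of 101 hypoacetylated ones (33.7%). For called peaks outside promoters the shares were 60.3% and 54.8% in the motor cortex and 35.8% and 39.1% in the SN in that order, and 25.4% and 27.3% of all listed motor cortex peaks and 10.8% and 10.6% of all listed SN peaks had such a neighbour. More peaks were called in the motor cortex, and shares of the regions are not comparable.

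Some members had no peak in the other region at all, 84 hyperacetylated and 68 hypoacetylated in the motor cortex and 11 and 7 in the SN. The widest in the motor cortex include hypoacetylated peaks at Bcl11a and Sox5, transcription factor genes of cortical neurons. The hyperacetylated ones were narrower, up to 7255 bp at Car4, a membrane carbonic anhydrase. Those of the SN include Itgam, Cp, which encodes ceruloplasmin, and 1 of the C1qc peaks.

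Sequence was not used to choose the members. The window examined ran from 250 bases before to 50 after the first start listed for a gene in the RefSeq promoter table (GRCr8). A sequence was matched for 220 of 265 genes with a hyperacetylated SN promoter (83.0%), but for 72 of 93, 430 of 553 and 304 of 394 genes of the other tables (77.4%, 77.8% and 77.2%), which is under the 80% set as a minimum, so over all named genes the check is void for those 3 tables. Restricting it to protein-coding genes, a choice made after the low match had been seen, gave 84.6%, 81.6%, 80.5% and 80.1%, and the values that follow are of those genes. The median GC content was 64.3% for hyperacetylated and 62.3% for hypoacetylated SN genes and 61.5% and 58.0% for those of the motor cortex, against 55.3% over all 18999 protein-coding promoters matched. CpG-rich promoters, here those with GC of at least 55% and an observed over expected CpG ratio of at least 0.65, made up 61.8% and 53.5% in the SN, 214 of 428 genes with a hyperacetylated and 45.2% with a hypoacetylated motor cortex promoter, and 36.5% of all. Members at the lists of cell-type genes can depart from this, since the C1qa and C1qb promoters were not CpG-rich, with ratios of 0.268 and 0.204. The comparison set is all matched protein-coding promoters, whether acetylated in these tissues or not. Acetylated promoters without a call could not be compared, because their genes are not named.

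Among 13 motifs searched on both strands, the cAMP response element was held by 19 of 301 hypoacetylated motor cortex genes (6.31%), 9 of 220 hyperacetylated SN genes (4.09%), 10 of 428 hyperacetylated motor cortex genes (2.34%) and 2 of 71 hypoacetylated SN genes (2.82%), against 2.22% of all. Of the 19, Btg2, Scg2 and Vgf, whose sequences stand above, are on the activity-dependent list, and of the 9 in the SN Ier2 and Maff are. The GC box GGGCGG was held by 70.0%, 64.8%, 64.7% and 51.5% in the order SN hyper, SN hypo, motor cortex hyper and motor cortex hypo, against 43.1% of all, and the TATA box TATAAA by 7.73%, 8.45%, 7.48% and 7.64% against 13.1%. The NF-kB site was held by 7.73%, 8.45%, 5.37% and 4.32% against 4.38%, the E-box CACGTG by 13.6%, 11.3%, 6.31% and 6.31% against 7.26%, and the AP-1 site TGANTCA by 2.73%, 5.63%, 7.94% and 7.64% against 6.65%. The CCAAT box CCAAT was held by 30.9%, 54.9%, 33.4% and 35.9% against 38.4%, the STAT site TTCNNNGAA by 7.73%, 1.41%, 6.54% and 7.64% against 8.26%, the ETS site CCGGAAG by 12.3%, 9.86%, 10.7% and 15.3% against 11.2%, and the antioxidant response element TGACNNNGC by 14.5%, 15.5%, 12.9% and 14.3% against 12.7%. The serum response element, the glucocorticoid response element and the interferon-stimulated response element were each held by at most 4.21% of any set. Aligned at their first base, the letters of the cAMP response element match neither TGANTCA nor TGACNNNGC, but matches to different motifs may share bases at other offsets. The differences between sets were not tested, and acetylated promoters without a call could not be compared.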

How the data were processed

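H3K27ac ChIP-seq of SN and motor cortex tissue from 5 rotenone and 4 vehicle rats had been processed by the authors with Trim Galore 0.6.7, Bowtie2 2.4.4, Picard 2.6.0, MACS2 2.2.7.1 and featureCounts 2.0.5 (mRatBN7.2). The deposited unit is a peak position per line, from peaks called on the combined reads of a region, with no count, signal or score. The authors tested peaks with edgeR's quasi-likelihood test at a false discovery rate of 0.05 and annotated them with ChIPseeker. Their fold changes and p-values are not used here. From the tables only position, annotation, gene name, distance to the start site and direction were taken. Of 11318 rows, 11317 matched a listed peak exactly. The tables were read from a text copy of the supplement in which some gene names are misread, so counts of genes may be low.

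Widths, overlaps of at least 1 bp, neighbours within 50 kb, Wilson intervals and motif matches were computed in Python 3.11.15 (pandas 2.3.3, numpy 2.4.6, scipy 1.17.1, matplotlib 3.10.9), with overlap and motif code tested on simulated data. No statistical test was run, since the lists hold no value per rat. The lists hold no depth either, and the study describes more reads in the motor cortex than in the SN, so the precision behind a peak could not be computed. Named genes are the 5 widest members per table, the list genes with a promoter member, the genes with opposite calls between or within regions, those with at least 3 members, microRNA genes, and neighbours in crowded windows. Other names were chosen after their values were seen. The members and gene lists were chosen with earlier results of these data known. Alternatives were members within 1 kb, merged peaks, reciprocal overlap, a gap of up to 1 kb and a minimum width. Promoter sequences came from RefSeq (GRCr8), used for letters and names only. Some items that the rule names are not reported here.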

Additional observations from a re-analysis of the deposited data

How the results depend on the processing

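No paired analysis was possible because the pooled lists hold no value per rat and the rotenone and vehicle rats share no replicate number, and for the same reason no rat could be left out. Of 79 alternative values that answer a comparison, 60 stayed within their limit and 19 moved. Of 37 for single gene lists, 35 stayed and 2 moved. Merging all listed peaks of a region up to 1 kb apart, called or not, widened the peaks that hold members. Their median width became 4203.5 bp (SN hyper), 4568 bp (SN hypo), 3248.5 bp (motor cortex hyper) and 4467 bp (motor cortex hypo). The median of the whole list under this merging was not computed. Keeping members within 1 kb of the start gave widths of 2163 and 3817.5 bp for motor cortex hyper and hypo, and overlaps of 98.3% (SN hyper), 92.5% (motor cortex hyper) and 91.3% (motor cortex hypo). Requiring 50% reciprocal overlap lowered the overlap to 82.2% and 68.3% in the SN and 62.4% and 57.1% in the motor cortex, where the SN list fell to 41.8% and the motor cortex list to 36.6%. Allowing a gap of up to 1 kb gave 98.6% for SN hyper and 89.4% for motor cortex hyper, with the SN list at 73.0% and the motor cortex list at 58.8%. Counting peaks of at least 1000 bp alone gave 80.5% and 78.5% for motor cortex hyper and hypo, with the motor cortex list at 54.6%. Hypoacetylated SN members meeting a call of their own direction fell from 28 to 18 within 1 kb and to 18 under reciprocal overlap. These changes follow from fewer peaks, merged peaks or a stricter or looser overlap. Depth limits which peaks were listed, by an amount that cannot be computed here.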
